A study of Oryza sativa with 9 samples.

Results

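ADP-glucose is the sugar donor from which starch is built, and the genes described here make it and carry it into the plastid. They are the ADP-glucose pyrophosphorylase (AGPase) genes of rice, 4 for large subunits (AGPL1, AGPL2, AGPL3 and AGPL4) and 2 for small subunits (AGPS1 and AGPS2), together with BT1, the ADP-glucose transporter of the plastid envelope. The 7 genes were taken by their locus identifiers from the 31263 loci of the deposited table, and all 7 were listed there. All 7 also passed the filter on low values (at least 1 RPKM in at least 3 libraries), AGPL4 only just, with 3 libraries at 1 RPKM or more. RPKM, the unit of the table, is reads per transcript length and per mapped total, so levels of different genes can be set side by side per length.

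AGPase joins glucose 1-phosphate and ATP into ADP-glucose. The enzyme is a heterotetramer in which small subunits carry most of the catalytic activity and large subunits mostly tune its regulation. In most plant tissues AGPase sits inside plastids, but in cereal endosperm the major form is cytosolic, and BT1, a member of the mitochondrial carrier family first known from the brittle1 mutant of maize, brings its product into the amyloplast. In rice the cytosolic endosperm enzyme pairs AGPL2 (the counterpart of maize shrunken2) with the AGPS2b transcript of AGPS2 (the counterpart of maize brittle2), whereas AGPL1, AGPL3, AGPL4, AGPS1 and the leaf transcript AGPS2a are plastid forms. The names AGPL1 and AGPL3 are exchanged in some of the rice literature, so the locus identifier decides here.

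RNA came from dehulled rice seeds of 3 genotypes, harvested between 10 and 14 days after flowering; the plants stood at 27 °C under a cycle of 12 h light and 12 h darkness. Each genotype had 3 biological repeats with 1 library each. The complemented line, pHL8042/EM1084, is a transgenic derivative of EM1084 that received a wild type OsTudor-SN copy, so it also carries the mutant allele of the host. EM1084 is a mutant line with the change E503K in OsTudor-SN, an RNA-binding protein with staphylococcal nuclease-like and Tudor domains. Wild type seeds are the common control. Its cultivar, the promoter that drives the transgene and how many plants went into a library are not stated in the labels. A single mutant line and a single transgenic line were profiled, so features of those lines other than OsTudor-SN cannot be told apart from it. The question asked of these genes is which of them differ when OsTudor-SN is mutated, and which return when a wild type copy is added.

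Mapped reads numbered between 5778627 and 18449248 per library, fewest in wild type, where all 3 libraries lay under those of the other lines. OsTudor-SN (LOC_Os02g32350) stood at 349, 367 and 389 RPKM in the complemented line, 206, 212 and 221 RPKM in EM1084 and 91.1, 97.6 and 88.4 RPKM in wild type, although a level cannot show a change of 1 base. Storage protein genes took 45.6% to 50.5% of the reads in listed genes in the complemented line, 34.1% to 34.9% in EM1084 and 57.7% to 62.2% in wild type. RPKM is a share of the mapped total, and the median log2 difference over the 15450 genes tested was -0.34 for the complemented line against EM1084, 1.06 for EM1084 against wild type and 0.73 between complemented line and wild type. Each difference below is therefore given on RPKM as deposited and, where the scaling alters it, under median-of-ratios scaling, which added 0.43, -1.41 and -0.99 to the log2 difference of an abundant gene in the same 3 comparisons. Quantile normalization, library sizes outside the storage genes and limma-voom on read numbers were run as well. For OsTudor-SN the log2 difference of EM1084 against wild type was 1.20 on RPKM as deposited (limma adjusted p = 1.15e-08). With the median of ratios it was -0.20 (adjusted p = 0.00789). It was 0.45 after quantile normalization (adjusted p = 4.24e-05) and 0.50 outside the storage genes (adjusted p = 0.000282), so its sign depended on the scaling. In whole seeds, fewer cells of a type and less RNA per cell cannot be told apart.

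Levels of the 7 genes spread over more than 3 orders of magnitude, and the cytosolic pair and the transporter stood far above the plastid forms in every library. AGPS2, BT1 and AGPL2 were the 3 most abundant, each above at least 99.8% of all listed loci in every genotype mean. AGPS2 was first in 7 libraries and BT1 in 2, which were EM1084 3 and wild type 3, so the order of these 2 is not fixed beyond the spread between libraries. AGPL2 came after both in all 9. The places below it differed between genotypes. AGPS1, AGPL1 and AGPL3 followed in that order in all 3 complemented libraries. In all 3 EM1084 libraries the order was AGPS1, AGPL3 and AGPL1. In all 3 wild type libraries it was AGPL1, AGPS1 and AGPL3. AGPL4 was last throughout.

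**Figure D1:**
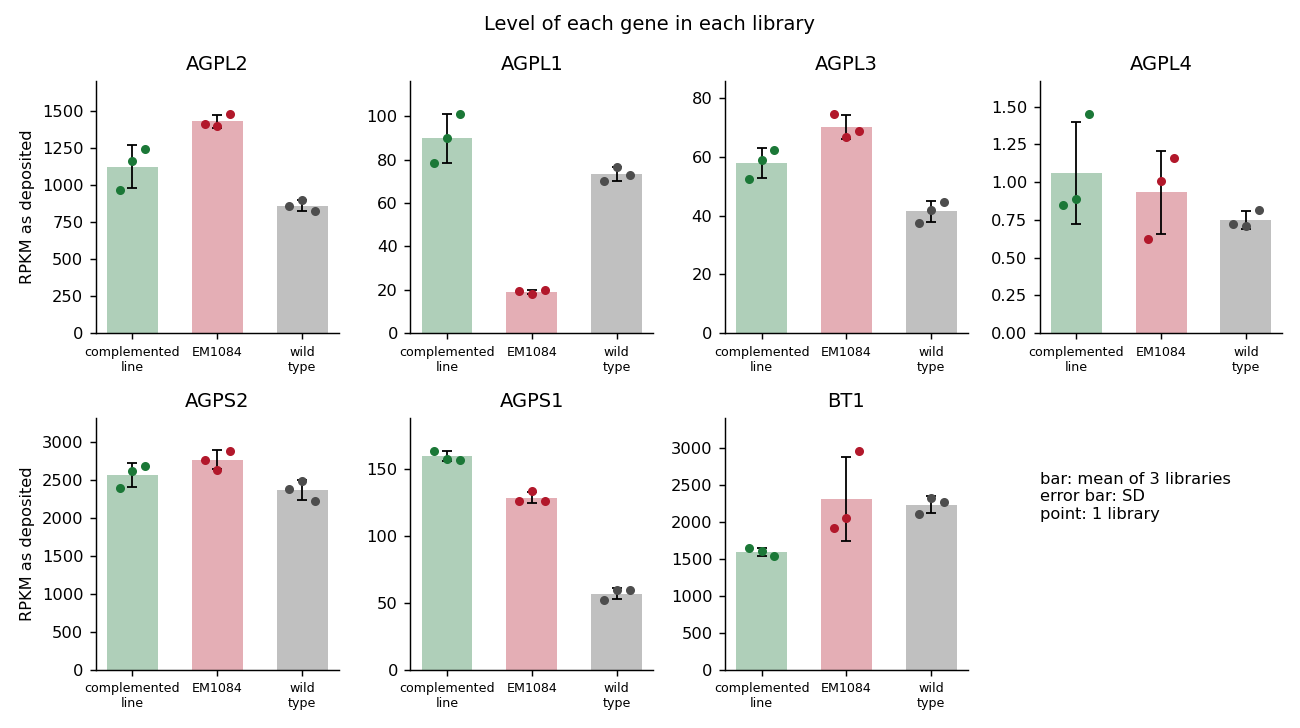
RPKM of each gene (vertical axes, linear and starting at 0, with a scale of their own) in the complemented line, EM1084 and wild type; bars are means of 3 libraries, error bars SDs and points single libraries. AGPL1 averaged 89.9 RPKM in the complemented line, 19.1 RPKM in EM1084 and 73.3 RPKM in wild type, and the BT1 value of 2969 RPKM in EM1084 3 lies apart from the other 2 EM1084 libraries.

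AGPL1 (LOC_Os05g50380, chromosome 5, 28871794 to 28877277, minus strand, in the coordinates of the table) encodes a plastid large subunit. The steps in its values correspond to a transcript of 2408 bases. It read 78.4, 90.1 and 101.1 RPKM in the complemented libraries, 19.4, 18.1 and 19.8 RPKM in EM1084 and 70.2, 76.6 and 73.1 RPKM in wild type. EM1084 was the low genotype, and none of its libraries came near those of the other lines. Behind these values stood 3407 to 4144 reads in the complemented line, 599 to 745 in EM1084 and 1017 to 1784 in wild type.

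AGPL1 fell 3.84-fold in EM1084 against wild type (log2 difference -1.89, SE 0.10, 95% interval -2.10 to -1.67, limma adjusted p = 2.2e-09, lower in 3 of 3 libraries). The value lay -2.95 from the median of all genes, and 0.77% of tested genes had a lower one. It rose 4.71-fold in the complemented line against EM1084 (log2 difference 2.17, SE 0.10, 95% interval 1.95 to 2.39, adjusted p = 2.86e-09, higher in 3 of 3 libraries). Both calls were made in the same direction under all 5 scalings tried, with log2 differences of -3.25 and 2.56 under median-of-ratios scaling. With each library left out in turn the first stayed between -1.92 and -1.85 and the second between 2.08 and 2.26.

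In the complemented line against wild type the AGPL1 log2 difference was 0.28 (SE 0.10, adjusted p = 0.0197). This call was lost without complemented 2 (adjusted p = 0.0534), complemented 3 (0.0962) or wild type 1 (0.066), and under median-of-ratios scaling the value was -0.69 (adjusted p = 1.97e-05), so no direction holds across scalings. The median of all genes in this comparison was 0.73.

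AGPL2 (LOC_Os01g44220, chromosome 1, 25353769 to 25362199, plus strand) encodes the large subunit of the cytosolic endosperm enzyme. Its libraries gave 964, 1164 and 1244 RPKM in the complemented line, 1409, 1401 and 1480 RPKM in EM1084 and 860, 896 and 824 RPKM in wild type. The 3 genotypes did not overlap, with EM1084 highest and wild type lowest on RPKM as deposited. The log2 difference was 0.73 for EM1084 against wild type (SE 0.09, adjusted p = 4.48e-06), which lies under the overall median of 1.06, and had the opposite sign, -0.68 (adjusted p = 2.36e-06), with the median of ratios. For the complemented line against EM1084 it was -0.35 (SE 0.09, adjusted p = 0.00453), which is 0.01 below the median of all genes, and 0.07 (adjusted p = 0.4) under median-of-ratios scaling. Between complemented line and wild type it was 0.38 (SE 0.09, adjusted p = 0.0017), and -0.61 (adjusted p = 6.97e-06) under median-of-ratios scaling. With library sizes taken outside the storage genes, the AGPL2 differences came to -0.05, 0.03 and -0.01 in the complemented line against EM1084, EM1084 against wild type and the complemented line against wild type, and none passed (adjusted p = 0.745, 0.772 and 0.91). Quantile normalization called all 3 in the direction of RPKM as deposited, at -0.49, 0.905 and 0.42 in that order (adjusted p = 0.000885, 3.78e-06 and 0.00198).

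AGPL3 (LOC_Os03g52460, chromosome 3, 30099369 to 30104596, minus strand) encodes the large subunit best known from leaves. It stood at 52.4, 58.8 and 62.4 RPKM in the complemented libraries, 74.6, 66.8 and 68.7 RPKM in EM1084 and 37.5, 42.0 and 44.6 RPKM in wild type. Genotypes did not overlap, and their order was that of AGPL2. Log2 differences were -0.27 for the complemented line against EM1084 (SE 0.10, adjusted p = 0.0305), 0.75 between EM1084 and wild type (SE 0.10, adjusted p = 9e-06) and 0.47 between complemented line and wild type (SE 0.10, adjusted p = 0.00065). The first was lost without complemented 1 (adjusted p = 0.102), complemented 2 (0.0604), EM1084 1 (0.12) or EM1084 3 (0.0567). Under median-of-ratios scaling the 3 values were 0.15, -0.64 and -0.49, opposite in sign to those on RPKM as deposited.

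AGPL4 (LOC_Os07g13980, chromosome 7, 7982501 to 7989283, minus strand), a further plastid large subunit gene, was close to the limit of detection. It had 0.845, 0.886 and 1.45 RPKM in the complemented line (42, 45 and 68 reads), 0.624, 1.01 and 1.16 RPKM in EM1084 (22, 42 and 50 reads) and 0.723, 0.707 and 0.817 RPKM in wild type (21, 18 and 13 reads). Exact Poisson 95% intervals, which cover counting error only, ran from 0.435 to 1.40 RPKM for wild type 3 and from 1.13 to 1.84 RPKM for complemented 3. No pairwise difference passed on RPKM as deposited (log2 differences 0.09, 0.13 and 0.22, adjusted p = 0.652, 0.451 and 0.221 for the complemented line against EM1084, EM1084 against wild type and the complemented line against wild type), and their intervals reached from -0.26 to 0.58. The complemented libraries lay above those of wild type without overlap, and EM1084 overlapped both. Under median-of-ratios scaling EM1084 was called lower than wild type (log2 difference -0.52, adjusted p = 0.013). The 1095 bases of its region with the lowest coordinates, at its 3′ end, are shared with LOC_Os07g13969 on the plus strand, and no strand setting of the counting is given in the sources used here, so reads of the pair may be mixed.

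AGPS2 (LOC_Os08g25734, chromosome 8, 15666201 to 15672594, minus strand) is the small subunit gene of the cytosolic endosperm enzyme and, through an alternative first exon, of a leaf plastid form. The table has 1 value per locus, so AGPS2a and AGPS2b are summed in it. It read 2387, 2622 and 2685 RPKM in the complemented line, 2764, 2634 and 2884 RPKM in EM1084 and 2377, 2487 and 2226 RPKM in wild type. EM1084 lay above wild type without overlap, and the complemented libraries overlapped both. The log2 difference of EM1084 against wild type was 0.22 (SE 0.07, adjusted p = 0.0104), with an opposite value of -1.19 (adjusted p = 4.8e-09) for the median of ratios and of -0.48 (adjusted p = 0.000428) for library sizes outside the storage genes. It lay -0.84 from the overall median. Neither other comparison passed on RPKM as deposited. The complemented line differed from EM1084 by -0.11 (95% interval -0.26 to 0.05, adjusted p = 0.226) and from wild type by 0.12 (95% interval -0.04 to 0.27, adjusted p = 0.151), with 0.32 and -0.87 under median-of-ratios scaling, both called there. Quantile normalization called both the other way, at -0.58 (adjusted p = 0.00019) and 0.46 (adjusted p = 0.000839), and gave 1.04 (adjusted p = 8.65e-07) for EM1084 against wild type, so AGPS2 has no direction across scalings. Without complemented 1 the difference from wild type was called (0.17, adjusted p = 0.0389). The AGPS2 test over all 3 genotypes (adjusted p = 0.03) lost its call without EM1084 1 (0.0786), EM1084 3 (0.0962), wild type 1 (0.0752) or wild type 3 (0.105).

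AGPS1 (LOC_Os09g12660, chromosome 9, 7245359 to 7249816, minus strand), the gene of the plastid small subunit, had its highest level in the complemented line. It read 164, 157 and 157 RPKM there, 126, 133 and 126 RPKM in EM1084 and 51.9, 59.5 and 59.2 RPKM in wild type. Genotypes did not overlap. AGPS1 rose 2.80-fold in the complemented line against wild type (log2 difference 1.47, SE 0.08, 95% interval 1.30 to 1.65, adjusted p = 7.57e-09, higher in 3 of 3 libraries), and this call stood under all 5 scalings (0.50 under median-of-ratios scaling, adjusted p = 0.000483). It also rose in the complemented line against EM1084, 1.24-fold (log2 difference 0.31, SE 0.08, adjusted p = 0.00577), under all 5 scalings as well (0.73 under median-of-ratios scaling, adjusted p = 4.72e-05). In EM1084 against wild type AGPS1 gave a log2 difference of 1.16 (SE 0.08, adjusted p = 2.35e-08) on RPKM as deposited, close to the overall median of 1.06. It was called lower with the median of ratios (-0.23, adjusted p = 0.0372) and limma-voom (-0.21, adjusted p = 0.0255). Quantile normalization (0.29, adjusted p = 0.0091) and library sizes outside the storage genes (0.47, adjusted p = 0.000686) called it higher.

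BT1 (LOC_Os02g10800, chromosome 2, 5736604 to 5738853, plus strand) had the lowest levels in the complemented line. It read 1649, 1604 and 1539 RPKM there, 1918, 2053 and 2969 RPKM in EM1084 and 2110, 2321 and 2279 RPKM in wild type. The complemented libraries lay below all others, and EM1084 and wild type overlapped. BT1 was called lower in the complemented line against wild type (log2 difference -0.48, SE 0.13, adjusted p = 0.00353, lower in 3 of 3 libraries), and also with the median of ratios (-1.47), outside the storage genes (-0.88) and with limma-voom, but not under quantile normalization (-0.22, adjusted p = 0.553). Against EM1084 the complemented line differed by -0.51 (SE 0.13, adjusted p = 0.00445), a call that none of the other 4 scalings made. The value was -0.08 (adjusted p = 0.679) with the median of ratios but -0.68 (adjusted p = 0.0922) after quantile normalization. On RPKM as deposited it came to -0.31 (adjusted p = 0.00594) without EM1084 3.

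EM1084 and wild type differed in BT1 by 0.02 on RPKM as deposited (SE 0.13, 95% interval -0.25 to 0.30, adjusted p = 0.871). The sign was not stable, with -0.17 (adjusted p = 0.0565) without EM1084 3 and -0.02 (adjusted p = 0.907) without wild type 1. Under median-of-ratios scaling the difference was -1.39 (adjusted p = 4.99e-06). The coefficient of variation of BT1 was 3.44% in the complemented line, 24.7% in EM1084 and 5.01% in wild type, and among the other 5 abundant genes in EM1084 it ran from 3.03% to 5.78%.

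**Figure D2:**
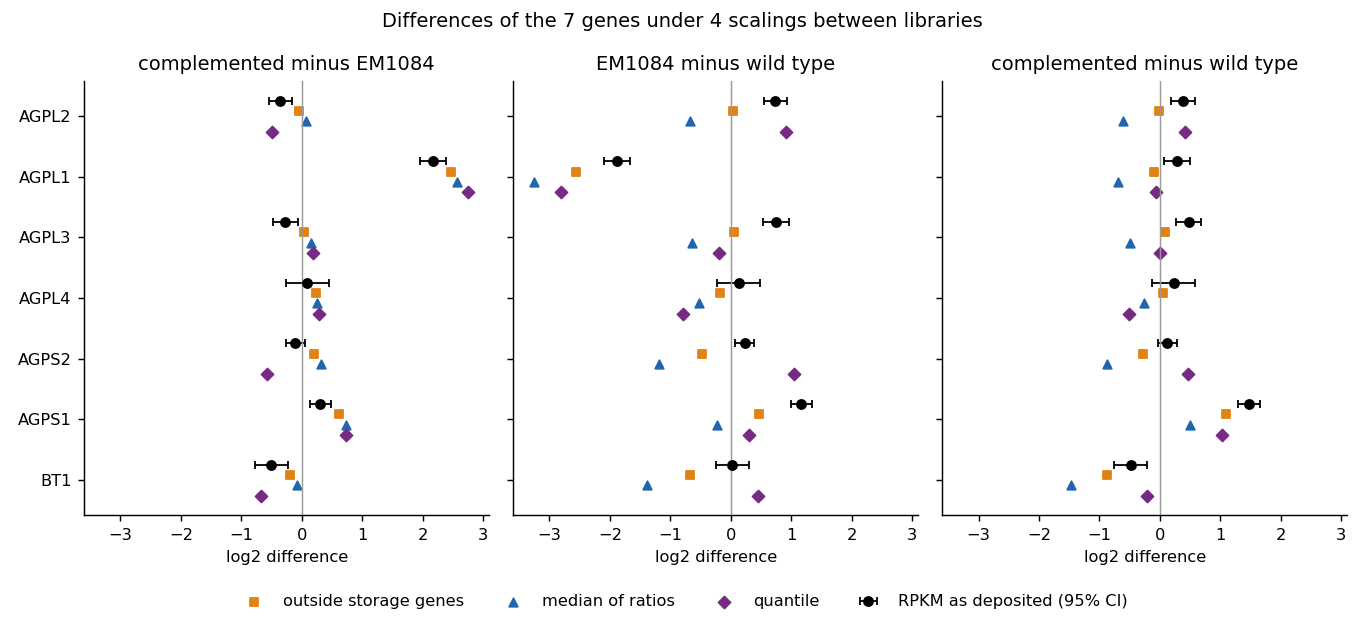
Log2 differences of the 7 genes (horizontal axes) in the 3 comparisons, on RPKM as deposited with 95% intervals from limma and under 3 other scalings between libraries. AGPL1 lies far from 0 under each of the 4 in both comparisons that involve EM1084. On RPKM as deposited it lies at 2.17 in the complemented line against EM1084 and -1.89 in EM1084 against wild type. AGPL2, AGPL3, AGPL4, AGPS1, AGPS2 and BT1 each fall on both sides of 0 in EM1084 against wild type.

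Counted over the 7 genes on RPKM as deposited, 2 were called higher and 3 lower in the complemented line against EM1084, where 55.5% of all tested genes were called, 10.2% higher and 45.3% lower. In EM1084 against wild type 4 were called higher and 1 lower, against 88.1% of all tested genes, 82.7% higher and 5.33% lower. In the complemented line against wild type 4 were called higher and 1 lower, against 79.4%, 72.0% higher and 7.37% lower. With so many genes called, a call by itself sets no gene apart. A test over all 3 genotypes at once called 6 of the 7, all but AGPL4, and 93.0% of all genes on RPKM as deposited. Which members it called depended on the scaling. AGPL4 was called with the median of ratios (adjusted p = 0.0308), after quantile normalization (0.00177) and with limma-voom (0.0371). AGPL2 (0.894) and AGPL3 (0.646) were not called outside the storage genes, and AGPL3 (0.137) and BT1 (0.14) were not after quantile normalization. The median log2 difference of the 7 was -0.11, 0.22 and 0.28 in these comparisons, next to -0.34, 1.06 and 0.73 over all genes. Median-of-ratios scaling gave 3 higher and 0 lower, then 0 higher and 7 lower, then 1 higher and 5 lower in the same order, against 18.4% and 18.5%, 31.4% and 27.4%, and 29.0% and 25.6% of all genes. Calls in either direction came to 41.0%, 55.4% and 51.8% of all genes under quantile normalization, 39.1%, 72.1% and 67.7% outside the storage genes and 50.6%, 53.8% and 49.3% with limma-voom, in the same order. Of the 21 differences, 5 had the same call or lack of one under all 5 scalings. They were the 2 of AGPL1 that involve EM1084, the 2 of AGPS1 that involve the complemented line, and AGPL4 in the complemented line against EM1084, which was never called.

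A ratio of 2 genes within a library is left as it is by a scaling that divides the library by a single factor (the deposited total, the median of ratios, the size outside the storage genes), but not by quantile normalization, whose values are given where a sign differs. AGPL1 made up 7.06% ± 0.18 of the summed large subunit RPKM in the complemented line, 1.26% ± 0.04 in EM1084 and 7.52% ± 0.25 in wild type (SD, n = 3 each). AGPL2 made up 88.3% ± 0.31 in the complemented line, 94.1% ± 0.32 in EM1084 and 88.2% ± 0.69 in wild type. The share of AGPL3 was 4.56% ± 0.19 in the complemented line, 4.61% ± 0.31 in EM1084 and 4.25% ± 0.44 in wild type. AGPL4 made up 0.0825% in the complemented line, 0.0611% in EM1084 and 0.0770% in wild type.

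The ratio of AGPL1 to AGPL2 was 0.0813, 0.0774 and 0.0813 in the complemented libraries, 0.0138, 0.0129 and 0.0134 in EM1084 and 0.0816, 0.0856 and 0.0887 in wild type. The log2 ratio was lower in EM1084 than in wild type (difference -2.67), and higher in the complemented line than in EM1084 by 2.58. Complemented line and wild type differed by -0.09, with no overlap between their libraries. Over the 3 genotypes the ratio differed by an exact permutation test (two-sided p = 0.00357, which no result of the 280 splits can go below, adjusted p = 0.00476 over 4 ratios). For each pair of genotypes the exact permutation p was 0.1, the smallest that 3 against 3 allows (adjusted p = 0.109 over 12 tests). The 4 tested ratios were chosen with earlier results of these data known, and their p-values do not allow for that choice.

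AGPL1 was above AGPL3 in all 6 libraries of the complemented line and wild type and below it in all 3 of EM1084. The ratio of AGPL1 to AGPL3 was 1.495, 1.53 and 1.62 in the complemented line, 0.261, 0.271 and 0.288 in EM1084 and 1.87, 1.82 and 1.64 in wild type. Set against the plastid small subunit gene AGPS1, AGPL1 had a ratio of 0.565 ± 0.083 in the complemented line, 0.149 ± 0.012 in EM1084 and 1.29 ± 0.059 in wild type (SD, n = 3 each). Both ratios were added to the tested ones after the levels had been seen and carry no test. On RPKM as deposited, AGPL1 relative to AGPL2 and AGPL3 in the complemented line came close to wild type, whereas its level relative to AGPS1 lay between EM1084 and wild type. After quantile normalization the complemented line minus wild type gave log2 ratio differences of -0.48 for AGPL1 to AGPL2, -0.065 for AGPL1 to AGPL3 and -1.09 for AGPL1 to AGPS1.

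Within the small subunits, AGPS1 took 5.87% ± 0.48 of the summed RPKM in the complemented line, 4.46% ± 0.33 in EM1084 and 2.35% ± 0.23 in wild type, and AGPS2 the rest (SD, n = 3 each). The log2 ratio of AGPS1 to AGPS2 was higher by 0.42 in the complemented line than in EM1084, by 0.95 in EM1084 than in wild type and by 1.37 in the complemented line than in wild type. No pair of genotypes overlapped (exact permutation p = 0.1 for each pair, adjusted p = 0.109, and 0.00357 over the 3 genotypes, adjusted p = 0.00476). After quantile normalization the ratio was still highest in the complemented line (differences of 1.31 from EM1084 and 0.56 from wild type), but EM1084 minus wild type became -0.75.

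For the cytosolic partners, AGPL2 and AGPS2, the result depended on the scaling. On RPKM as deposited the ratio of AGPL2 to AGPS2 was 0.404, 0.444 and 0.463 in the complemented libraries, 0.509, 0.532 and 0.513 in EM1084 and 0.362, 0.360 and 0.370 in wild type. EM1084 was highest and wild type lowest without overlap, with log2 ratio differences of -0.25 for the complemented line against EM1084, 0.51 for EM1084 against wild type and 0.26 between complemented line and wild type (exact permutation p = 0.1 for each pair and 0.00357 over the 3 genotypes, adjusted p = 0.109 and 0.00476). After quantile normalization all 3 differences had the opposite sign (0.10, -0.14 and -0.04) and the exact permutation test over the 3 genotypes did not pass (adjusted p = 0.186), so no direction holds for this ratio across scalings. On RPKM as deposited, summed small subunit RPKM per summed large subunit RPKM was 2.15 ± 0.16 in the complemented line, 1.90 ± 0.03 in EM1084 and 2.48 ± 0.05 in wild type (SD, n = 3 each).

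BT1 per AGPL2 was 1.71, 1.38 and 1.24 in the complemented libraries, 1.36, 1.47 and 2.01 in EM1084 and 2.45, 2.59 and 2.76 in wild type. Both lines of the EM1084 background lay below wild type in every library, by log2 ratio differences of -0.71 for EM1084 and -0.86 for the complemented line (exact permutation p = 0.1 each, adjusted p = 0.109). Complemented line and EM1084 overlapped (difference -0.15, exact permutation p = 0.6, adjusted p = 0.6). Over the 3 genotypes the exact permutation p was 0.0214 (adjusted p = 0.0214), which moved to an adjusted p of 0.0571 without any single wild type library and of 0.232 after quantile normalization.

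**Figure D3:**
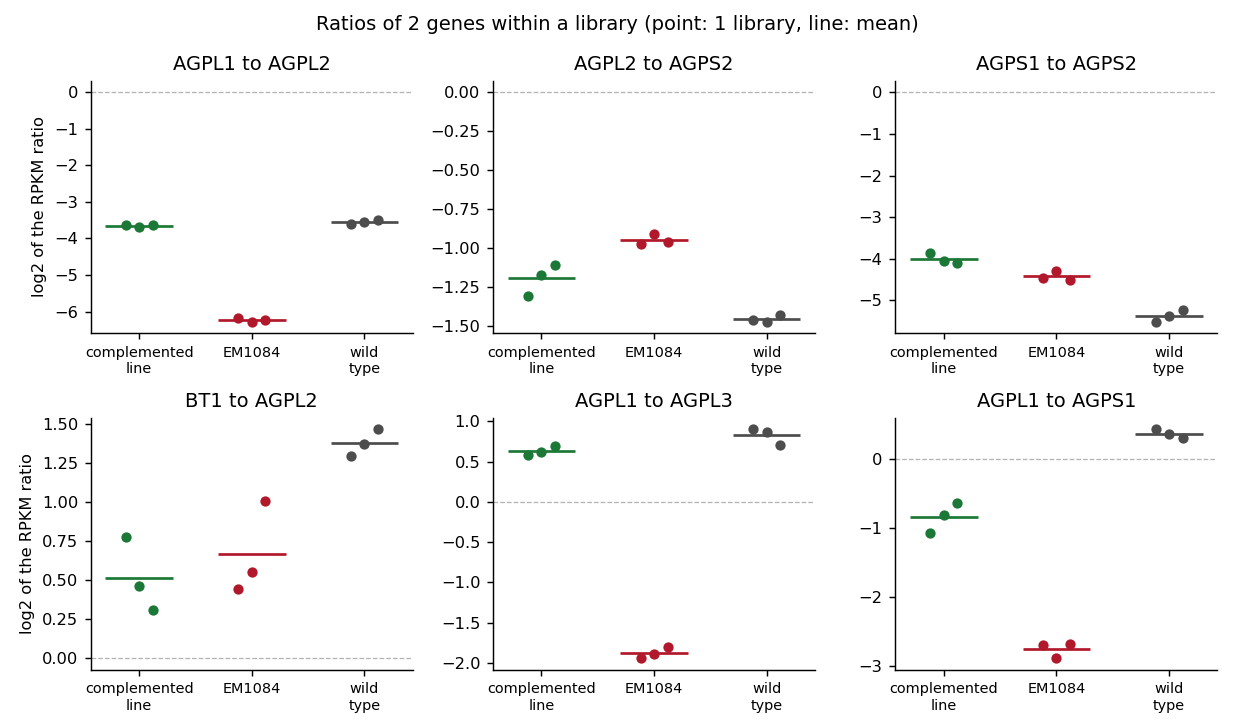
Log2 ratio of the RPKM of 2 genes within each library (vertical axes, each with a scale of its own; dashed lines mark equal RPKM), for 4 tested ratios and the 2 added ones of AGPL1 to AGPL3 and AGPL1 to AGPS1. Points are libraries and lines means, and the 3 EM1084 libraries lie apart from the other 6 in each ratio with AGPL1, with means for AGPL1 to AGPL2 of -3.65 in the complemented line, -6.23 in EM1084 and -3.55 in wild type.

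Other genes of the starch pathway give the setting for these values. The list held 29 genes from sucrose synthases through UDP-glucose pyrophosphorylases, the glucose 6-phosphate translocator GPT1 and starch synthases to branching, debranching, phosphorylase and disproportionating enzymes, of which 28 were in the table and 26 were tested. In the complemented line against EM1084 11 were called higher and 9 lower, with a median log2 difference of -0.04, where 10.2% and 45.3% of all tested genes were called higher and lower and the median was -0.34. In EM1084 against wild type 18 were called higher and 1 lower, with a median of 0.72, but 6 higher and 16 lower with the median of ratios. Over all tested genes 82.7% were called higher and 5.33% lower on RPKM as deposited with a median of 1.06. The median of the pathway thus lay below that of all genes on RPKM as deposited. It also did so with the median of ratios (-0.578, next to 0.076) and outside the storage genes (0.051, next to 0.577). After quantile normalization it did not (0.069, next to 0.003). With the median of ratios 31.4% of all genes were called higher and 27.4% lower in this comparison. In the complemented line against wild type 21 were called higher and 2 lower, with a median of 0.75, next to 72.0% and 7.37% of all genes and their median of 0.73. With the median of ratios 8 were called higher and 13 lower, next to 29.0% and 25.6% of all genes. No tested gene of this list had a lower EM1084 minus wild type value than AGPL1, or a higher complemented minus EM1084 value.

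The gene of the list called lower in EM1084 against wild type on RPKM as deposited was SSIIc (LOC_Os10g30156), a starch synthase gene of low level. It had 13.5 ± 1.98 RPKM in the complemented line, 8.82 ± 0.43 in EM1084 and 18.9 ± 0.61 in wild type (SD, n = 3 each), with log2 differences of 0.55 for the complemented line against EM1084 (adjusted p = 0.00135), -1.02 for EM1084 against wild type (adjusted p = 2.23e-06) and -0.47 between complemented line and wild type (adjusted p = 0.00222). The sucrose synthase gene SUS1 (LOC_Os03g28330) had the lowest complemented minus EM1084 value among called genes of at least 5 RPKM, at -1.06 (SE 0.13, adjusted p = 2.05e-05). UGP2 (LOC_Os02g02560), a UDP-glucose pyrophosphorylase gene below that level, had a lower value still (-2.20).

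Among 6 transcription factor genes known to act on starch and storage genes, 4 were called higher and 1 lower in the complemented line against EM1084, 5 higher and 0 lower in EM1084 against wild type, and 5 higher and 0 lower in the complemented line against wild type. Of all tested genes 10.2%, 82.7% and 72.0% were called higher in these comparisons and 45.3%, 5.33% and 7.37% lower. The counts against wild type are therefore near the background. With the median of ratios the counts higher and lower were 5 and 1, 1 and 5, and 3 and 1. Of all genes 18.4% and 18.5%, 31.4% and 27.4%, and 29.0% and 25.6% were called higher and lower there. NF-YB1 (LOC_Os02g49410), a CCAAT-binding subunit of the endosperm, had the highest value among called factor and pathway genes of at least 5 RPKM in EM1084 against wild type (log2 difference 3.25, SE 0.15, adjusted p = 6.1e-10) and in the complemented line against wild type (2.41, SE 0.15, adjusted p = 1.97e-08). NAC20 (LOC_Os01g01470), a NAC factor that acts on starch and storage protein genes, had the highest in the complemented line against EM1084 (1.54, SE 0.11, adjusted p = 9.69e-08).

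**Figure D4:**
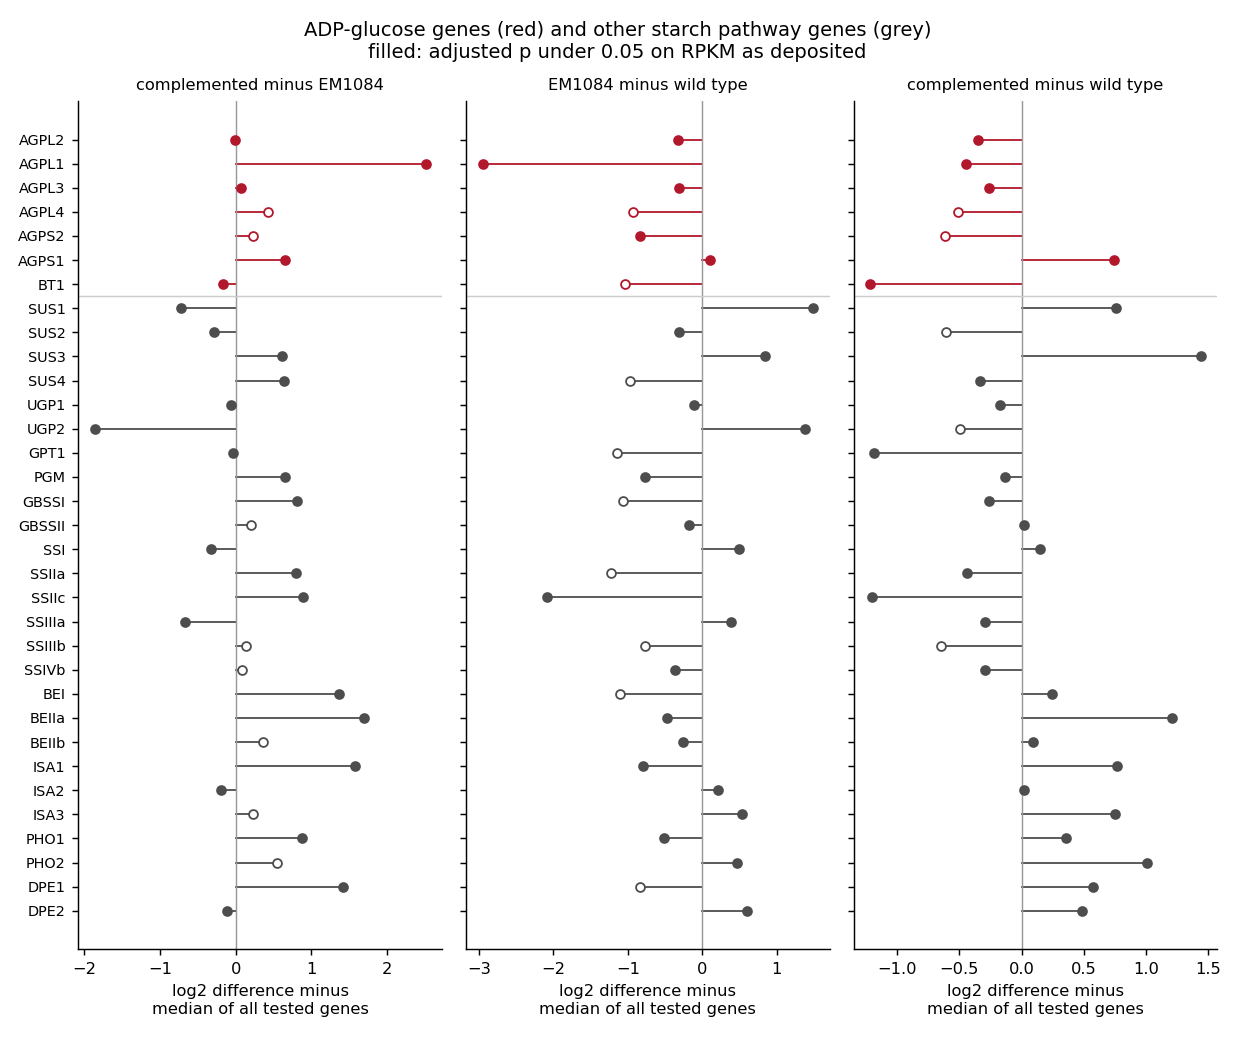
Log2 difference of each gene minus the median over all tested genes (horizontal axes) for the 7 ADP-glucose genes in red and 26 other starch pathway genes in grey; filled points passed an adjusted p of 0.05 on RPKM as deposited. AGPL1 has the lowest value of all in EM1084 against wild type (-2.95) and the highest in the complemented line against EM1084 (2.51), and BT1 (-1.22), SSIIc (-1.20) and GPT1 (-1.19) lie at the low end of the complemented line against wild type.

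The gene most like each member was sought among 34 genes of the pathway and factor lists, by the Pearson correlation of log2(RPKM + 1) over the 9 libraries. The libraries form 3 genotypes and share depth and composition within each, so these values describe mostly 3 means. AGPS1 was most like SUS3 (r = 0.99), AGPL3 most like SSIVb (r = 0.99) and AGPL2 most like SSI (r = 0.98). AGPS2 had UGP1 (r = 0.89) as its nearest. AGPL1 was less closely matched, with SSIIc first (r = 0.82), and BT1 had GPT1 first (r = 0.77). BT1 and GPT1 both encode carriers of the amyloplast envelope, and GPT1 (LOC_Os08g08840) had 322 ± 42.2 RPKM in the complemented line, 414 ± 27.9 in EM1084 and 439 ± 12.8 in wild type (SD, n = 3 each).

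Markers of other parts of the seed were read beside these genes, since AGPL3 and AGPS2a are known from leaves and whole seeds hold embryo and aleurone. Summed over 9 green tissue genes, RPKM was 5.18 to 7.91 in the complemented line, 5.68 to 7.12 in EM1084 and 3.54 to 3.96 in wild type. The rubisco activase gene among them was listed at 0 in all complemented and wild type libraries. Summed over 6 embryo and aleurone genes, RPKM was 1787 to 2225 in the complemented line, 1659 to 1972 in EM1084 and 1114 to 1193 in wild type, and none of the 6 was at 0. Within that list the oleosin gene OLE16 (LOC_Os04g46200) averaged 781 RPKM in the complemented line, 643 in EM1084 and 113 in wild type, whereas the late embryo genes EMP1 (LOC_Os05g28210) and RAB16A (LOC_Os11g26790) were lowest in EM1084. EMP1 averaged 129 RPKM in the complemented line, 87.2 in EM1084 and 500.0 in wild type, and RAB16A averaged 171, 56.2 and 429 RPKM in the same order. The rest of the list was lowest in wild type on RPKM as deposited, as OLE16 was. OLE18 averaged 876, 986 and 66.5 RPKM in that order, LEA3 107, 74.9 and 52.1 RPKM and VP1 3.0, 3.8 and 1.1 RPKM. On RPKM as deposited both sums were lowest in wild type, as were AGPS1, AGPL2 and AGPL3. The sums were not taken under the other scalings, so their order there is not known. Their part in the levels of AGPS1, AGPL2 and AGPL3 was not tested. In the deposited RPKM AGPL1 was lowest in EM1084, as EMP1 and RAB16A were but OLE16, OLE18, LEA3 and VP1 were not. For LEA3 this depended on the scaling. LEA3 was called lower in EM1084 than in wild type with the median of ratios (log2 difference -0.88, adjusted p = 1.89e-05). The same held after quantile normalization (-0.405, adjusted p = 0.00262), but outside the storage genes it was not called (-0.18, adjusted p = 0.173). The part of these marker genes in the AGPL1 difference was not tested. The 4 starchy endosperm markers summed to 87570 to 92490 RPKM in the complemented line, 37910 to 39830 in EM1084 and 73110 to 81880 in wild type, lowest in EM1084 as AGPL1 was. That sum is mostly 3 storage protein genes. The fourth marker, the granule-bound starch synthase gene GBSSI (LOC_Os06g04200), averaged 1623 RPKM in the complemented line, 1175 in EM1084 and 1170 in wild type. On RPKM as deposited GBSSI was not called in EM1084 against wild type (log2 difference 0.005, adjusted p = 0.955). It was called lower with the median of ratios (-1.405, adjusted p = 3.69e-08) and outside the storage genes (-0.70, adjusted p = 6.75e-05). After quantile normalization it was called higher (0.22, adjusted p = 0.0218). The part of the storage markers in the AGPL1 difference was not tested.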

How the data were processed

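Libraries from total RNA used the ScriptSeq v2 kit, per the labels' protocols. The authors deposited 1 RPKM column per library, per the file headers. Which aligner, counter, genome build and annotation they used, and any further scaling, is not stated in the labels or headers. Mapped totals, transcript lengths and read numbers were derived from the whole-read steps of the RPKM values (281367 of 281367 values whole within 0.001), using loci whose transcript fills their region. Between 58.7% and 72.9% of values of 1 to 20 reads were even, so read numbers need not be independent fragments, and intervals from them cover counting error at most. Genes with at least 1 RPKM in at least 3 libraries (15450) were tested as log2(RPKM + 1) by limma 3.58.1 in R 4.3.3, with a mean-variance trend, robust moderation and all 9 libraries in a single fit. Adjustment was by Benjamini and Hochberg across those genes, and a gene with an adjusted p under 0.05 is termed called. The pseudocount of 1 understates fold differences of low genes. Ratios were tested with exact permutation in Python 3.11.15. Tests are two-sided, and the scripts were tested on simulated data. Alternatives covered scaling, pseudocount, filter, limma-voom, a replicate block and leaving out each library.

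The members, lists and ratios were chosen with earlier results of these data known. All 7 members are described. From the pathway and factor lists, the gene most alike to each member of at least 1 RPKM was named, as was the called gene with the largest non-overlapping difference in each direction at a mean of at least 5 RPKM. UGP2, OLE16, OLE18, EMP1, RAB16A, LEA3, VP1, GBSSI among the markers and the rubisco activase gene were named after their values were seen. Gene names come from general knowledge, and 1 of the 7 (AGPS2) is also named in the RefSeq gene table of another assembly. The submitters call the 3 libraries of a genotype biological repeats, and p-values measure the spread between them.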

Additional observations from a re-analysis of the deposited data

How the results depend on the processing

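Both AGPL1 differences that involve EM1084 and both AGPS1 differences that involve the complemented line kept their direction and call under every alternative run. Most other members depend on the scaling between libraries, which the deposited RPKM cannot settle. AGPL4 rests on 13 to 68 reads per library, and without complemented 3, EM1084 2 or EM1084 3 it failed the filter and gave no value. A pair of planned count-model tests was not run, because the deposited values are RPKM. Same-numbered libraries did not deviate together (correlations of their deviations between -0.03 and 0.06). The labels do not say whether a number is shared between genotypes, and these correlations cannot show how libraries were grown or prepared, so pairing is unknown. With a replicate block the calls numbered 8395 in the complemented line against EM1084, 13595 in EM1084 against wild type and 12166 in the complemented line against wild type, near 8579, 13604 and 12263 without it, and the test of AGPS2 over the 3 genotypes lost its call (adjusted p = 0.0515, against 0.03).

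Every other scaling lowered the number of genes called. In the complemented line against EM1084 it was 5709 (median of ratios), 6339 (quantile), 6043 (outside the storage genes) and 7825 (limma-voom). In EM1084 against wild type it was 9072, 8564, 11134 and 8315 in that order. In the complemented line against wild type it was 8424, 8003, 10462 and 7610. The split changed as well, with 12781 higher and 823 lower in EM1084 against wild type on RPKM as deposited, and 4846 and 4226 with the median of ratios. With a library left out, the log2 ratio of BT1 to AGPL2 in the complemented line against EM1084 ran from -0.282 to 0.016, turning without EM1084 3, and its adjusted p over the 3 genotypes ran from 0.0179 to 0.0571. Ratios after quantile normalization, an alternative chosen after seeing the data, turned for AGPL2 to AGPS2 (0.096 in the complemented line against EM1084, -0.139 in EM1084 against wild type and -0.043 in the complemented line against wild type) and for AGPS1 to AGPS2 in EM1084 against wild type (-0.752). Over the 3 genotypes AGPL2 to AGPS2 (adjusted p = 0.186) and BT1 to AGPL2 (0.232) then no longer passed.

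Opposite signs to RPKM as deposited arose as follows, in log2 differences. In the complemented line against EM1084, the median of ratios gave 0.07 for AGPL2, 0.145 for AGPL3 and 0.318 for AGPS2, limma-voom 0.074, 0.154 and 0.321 for the same genes, and scaling outside the storage genes 0.032 for AGPL3 and 0.203 for AGPS2. Quantile normalization gave 0.19 for AGPL3. In EM1084 against wild type, the median of ratios gave -0.677 for AGPL2, -0.639 for AGPL3, -0.522 for AGPL4, -0.231 for AGPS1, -1.186 for AGPS2 and -1.388 for BT1. Limma-voom gave -0.67, -0.624, -1.093, -0.211, -1.18 and -1.372 for these genes in that order. Scaling outside the storage genes gave -0.184 for AGPL4, -0.477 for AGPS2 and -0.679 for BT1, and quantile normalization -0.192 for AGPL3 and -0.792 for AGPL4. In the complemented line against wild type, the median of ratios gave -0.692 for AGPL1, -0.607 for AGPL2, -0.494 for AGPL3, -0.266 for AGPL4 and -0.868 for AGPS2, and limma-voom -0.682, -0.596, -0.47, -0.514 and -0.859. Scaling outside the storage genes gave -0.104 for AGPL1, -0.013 for AGPL2 and -0.274 for AGPS2, and quantile normalization -0.067 for AGPL1, -0.002 for AGPL3 and -0.51 for AGPL4. With a library left out, AGPL4 in the complemented line against EM1084 ran from -0.027 to 0.166 and BT1 in EM1084 against wild type from -0.171 to 0.144. The cause of these changes was not tested.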
